A study of Homo sapiens with 6 samples.

Results

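DNA double-strand break and mismatch repair genes were examined in A431 cells that had lost CD109, a GPI-anchored protein of the cell surface that acts as a co-receptor of TGF-β. Members were chosen by gene symbol alone: the Fanconi anaemia, XRCC, MSH, PMS, MLH and RAD50 to RAD54 symbol families, and a fixed list of further break repair, checkpoint and excision repair genes. The rule found 52 genes among 21448 gene probe sets, of which 17709 carried 1 gene symbol. RAD54L2 and RAD51L3-RFFL entered through the pattern of their symbols, and their place among the roles was given after the files had been read. A431 is an established human squamous cell carcinoma line known for its high level of the EGF receptor. The CD109-KO group was made up of 3 lines, clones 26, 32 and 180, each grown from 1 sorted CD109-negative A431 cell after CRISPR/Cas9 editing with a guide RNA against exon 1 or exon 2 of CD109, carried on the pX458 plasmid. The other group was made up of 3 samples of parental A431 cells, numbered 5, 2 and 6, without the edit. Each clone or sample was hybridised to 1 Clariom S human array. The paper states 3 biological replicates in technical triplicate for this comparison. Nothing in the labels says that the parental samples were separate cultures, so p-values measure the spread between these arrays. Each knockout line is 1 clone, so properties of the founder cells cannot be told apart from loss of CD109. In bulk RNA, fewer cells of a type and less RNA per cell cannot be told apart either.

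A double-strand break is mended along one of several routes. In end joining, the Ku heterodimer grips the broken ends and a ligase complex seals them with little reference to sequence. In homologous recombination, the ends are cut back by the MRE11, RAD50 and NBN nuclease complex and a recombinase, loaded by BRCA1, PALB2 and their partners, copies the sister chromatid. Mismatch repair removes replication errors through MutS complexes that find the mismatch and MutL complexes that nick the strand, and loss of it is known for microsatellite instability. Many of these genes are transcribed most strongly in dividing cells.

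CD109 itself had a log2 signal of 3.64, 3.45 and 3.62 in CD109-KO clones 26, 32 and 180, against 7.57, 7.75 and 8.13 in parental samples 5, 2 and 6, a difference of -4.25 on the log2 scale (limma, SE 0.23, adjusted p = 1.09e-07), where SE is the standard error. Its clones lay under background, and the fall was at least 4.69-fold by the bound defined with the repair genes. The groups differed across the whole array. Correlations between arrays over gene probe sets were 0.961 to 0.970 within CD109-KO and 0.960 to 0.978 within parental arrays, but 0.557 to 0.632 between the groups. Of the squamous epithelium markers, 15 of 15 measured were lower in CD109-KO cells, EGFR and EPCAM among them, and their mean log2 signal was 5.68 to 5.99 in CD109-KO arrays and 9.92 to 10.10 in parental arrays. Of the fibroblast markers, 14 of 16 measured were higher and 1 was lower, with a mean log2 signal of 7.10 to 7.21 in CD109-KO arrays and 4.15 to 4.62 in parental arrays. A list of housekeeping genes, which every cell uses, also moved: 21 of 32 measured were lower in CD109-KO cells, with a median log2 fold change of -2.58. These marker and housekeeping counts use the calls defined with the repair genes, by which 24.8% of all gene probe sets were lower and 36.8% higher. The level under which a probe set was taken as background, set on each array by olfactory receptor probe sets, was 5.51 to 5.71 in CD109-KO arrays and 4.07 to 4.20 in parental arrays. Parental sample 2 stood apart from parental samples 5 and 6 in proliferation genes, 24 of 24 of which had their lowest parental signal there. The part of these differences in the repair results was not tested.

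Repair genes were mostly lower in CD109-KO cells in the deposited values. Once arrays were centred on housekeeping genes, more were higher than lower, as among all gene probe sets. Called changes needed an adjusted p under 0.01 and a fold change of 2. By that rule 29 of 52 members were lower, where 24.8% of all gene probe sets were lower. The 2 called higher were LIG3 and RAD51D, where 36.8% of all were higher. These 2 genes are neighbours on chromosome 17, and whether their rises are linked was not tested. With arrays centred on the housekeeping genes, 7 were lower and 24 higher, where 7.04% of all gene probe sets were lower and 75.5% higher. Parental sample 2 had lower signals of these genes than the other parental samples. Without it, in the deposited values, 36 were lower and 2 higher, where 25.7% of all gene probe sets were lower and 37.9% higher. The median log2 fold change of the 52 genes was -1.33, while that of all gene probe sets was 0.56. All 3 CD109-KO arrays lay below all 3 parental arrays for 34 members, against 29.5% of all gene probe sets, and above them for 4 members, against 50.1% of all. In the remaining 14 the groups overlapped. Of the 52 genes, 32 lay above background in no CD109-KO array, against 10241 of 21448 gene probe sets. In all 3 parental arrays 41 lay above it, against 13187 of 21448. Where all 3 CD109-KO values lay under background and all 3 parental values above it, only a bound on the fold is known, taken between the parental mean and either the background or the CD109-KO signal, whichever was higher on each array. Most of the 2-fold calls did not reach 2-fold by that measure. All bounds given here hold for the deposited scale only, and none was taken under another scaling. Under housekeeping centring, FANCI, FANCF, FANCC and ATM, each with such a bound, stood at -0.0015, 0.07, 0.19 and 0.0565. Of the 29 lower calls, 22 had no CD109-KO array above background, and the bound was 2-fold or more for 4 of these, XRCC5, XRCC4, PMS2 and MSH6. For 9 it was between 1.236-fold and 1.985-fold. For the remaining 9 no bound was set: the parental mean of CHEK2, LIG4 and ERCC4 was not above the CD109-KO background, and WRN, ATR, MRE11, BRCA1, RAD51AP1 and PMS1 had a parental array under background too. The fitted changes of these 22 genes describe array signals and not the size of a fall in RNA. The other 7, XRCC6, RAD50, ERCC5, ERCC3, ERCC1, PALB2 and XRCC1, were above background in at least 1 CD109-KO array.

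The number of calls depended on the test. The study's methods name Student's t-test for group comparisons in general, but not for the arrays. Under it, with the same adjustment and limits, 12 of the 29 lower calls and both higher calls were kept. Of all gene probe sets, 16.5% were lower and 24.9% higher under this test. The lower calls kept were FANCF, CHEK2, XRCC5, XRCC6, NHEJ1, XRCC4, RAD50, ERCC5, ERCC3, PALB2, PMS2 and MSH6. The 17 lost were FANCI, FANCC, XRCC2, WRN, CHEK1, ATM, ATR, LIG4, NBN, MRE11, ERCC4, ERCC1, BRCA1, RAD51AP1, PMS1, PARP1 and XRCC1.

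**Figure D1:**
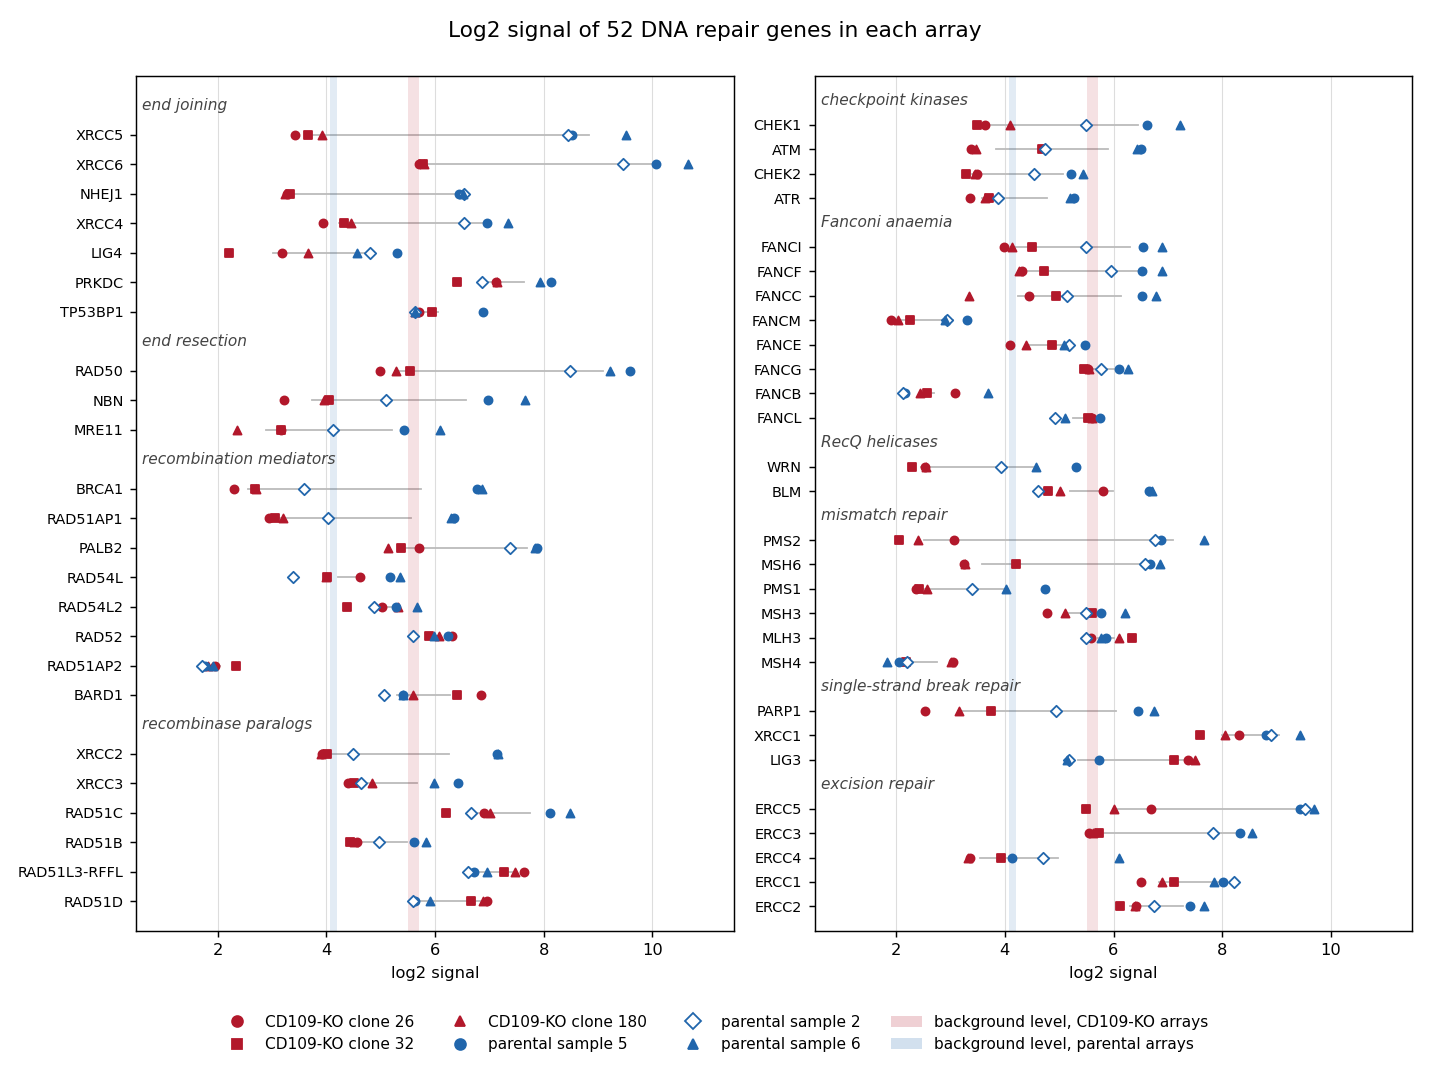
Log2 signal of each of the 52 genes (horizontal axis) in 3 CD109-KO clones (red) and 3 parental samples (blue, with sample 2 as open diamonds), grouped by role, with bands for the background level of each group's arrays and a grey line joining the group means. Red points lie left of all blue points for 34 genes and right of them for 4.

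Many of these directions changed with the scaling of the arrays. Centring each array on the mean of the housekeeping list adds 2.10 to every log2 fold change, and centring on the 23 antigenomic background controls takes away 0.98. The genes that stayed lower under housekeeping centring were XRCC5, XRCC6, NHEJ1, RAD50, ERCC5, PMS2 and MSH6, which code for parts of end joining, end resection, excision repair and mismatch repair. LIG3 was called higher under both centrings, but with antigenomic centring it lay only just inside the limit on fold. Under antigenomic centring 39 members were lower and 1 was higher, where 36.0% of all gene probe sets were lower and 6.08% higher. The counts by role and list below stand beside shares of all gene probe sets of 24.8% lower and 36.8% higher as deposited. With housekeeping centring those shares were 7.04% lower and 75.5% higher.

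**Figure D2:**
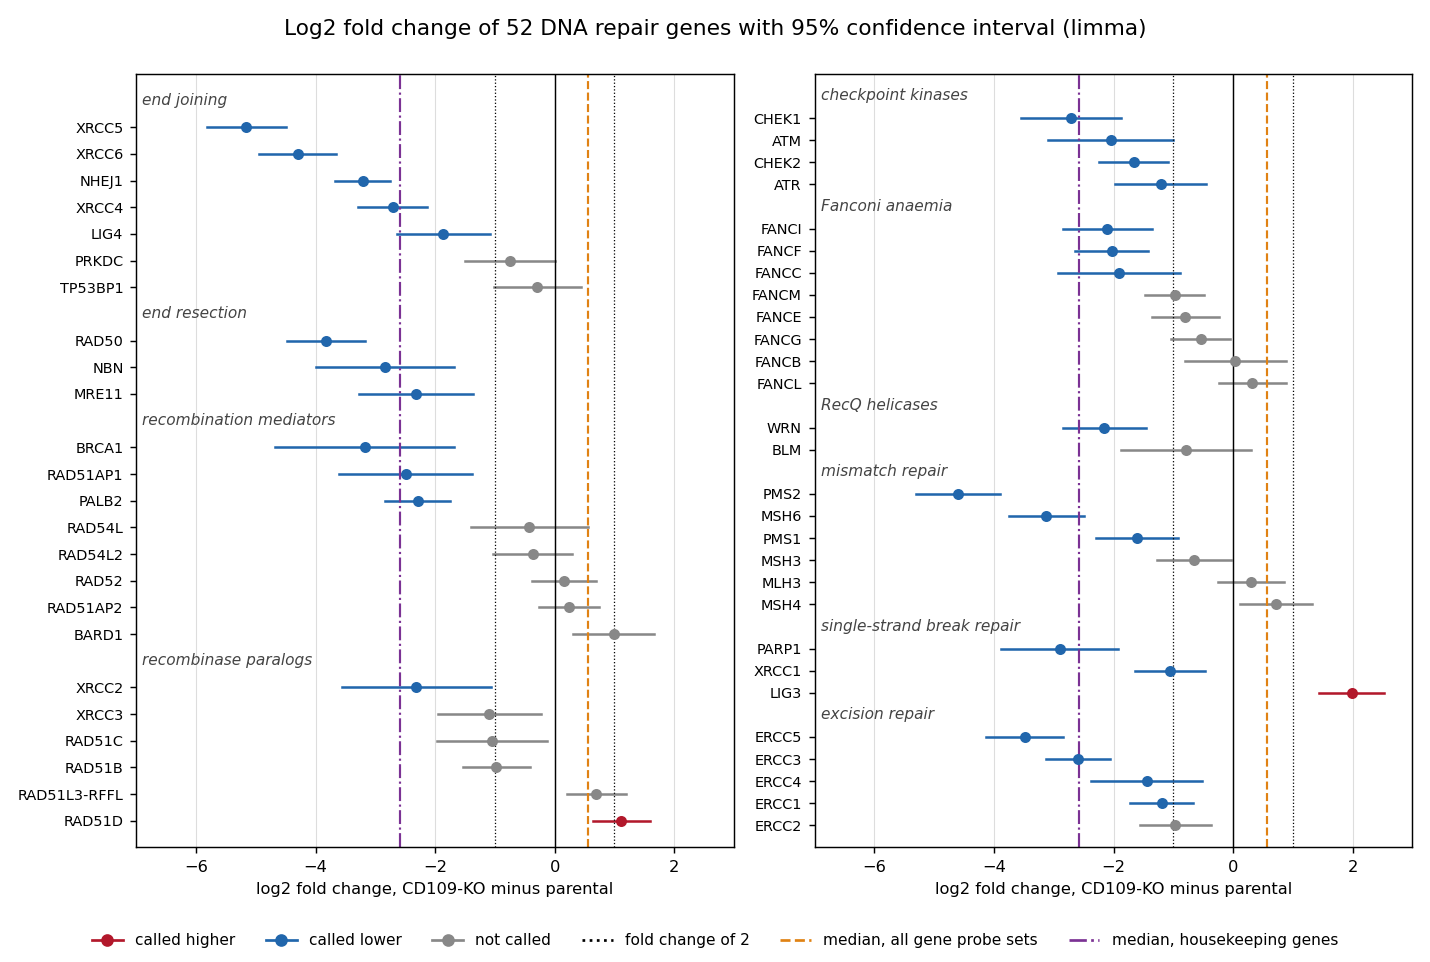
Log2 fold change, CD109-KO minus parental, with its 95% confidence interval from limma, for the 52 genes by role. In the deposited values 29 genes were called lower and 2 higher. With housekeeping centring, which moves every point right by 2.10, 7 were lower and 24 higher. Under that centring 7.04% of all gene probe sets were lower and 75.5% higher. The dashed line marks the median of all gene probe sets, 0.56, and the dash-dotted line that of the housekeeping genes, -2.58.

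End joining genes held the largest fall of all members. Of 7 measured, 5 were lower in CD109-KO cells (3 lower and 2 higher with housekeeping centring). XRCC5, the larger Ku subunit (chromosome 2, 216109348 to 216206293 in GRCh38.p14), had a log2 signal of 3.43, 3.66 and 3.91 in CD109-KO clones 26, 32 and 180, against 8.52, 8.44 and 9.51 in parental samples 5, 2 and 6. Every CD109-KO value was under background and every parental value far above it. Its log2 fold change was -5.16 (SE 0.30, adjusted p = 1.54e-07), and it was at least 9.43-fold lower in CD109-KO cells.

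XRCC6, the smaller Ku subunit (chromosome 22, 41621295 to 41664041), had a log2 signal of 5.70, 5.78 and 5.79 in the CD109-KO clones, against 10.07, 9.45 and 10.65 in the parental samples. It stayed just above background in all 3 CD109-KO arrays, so its fold is measured on both sides. The fitted log2 change was -4.30 (SE 0.29, adjusted p = 4.03e-07). NHEJ1, which bridges the ends beside the ligase (chromosome 2, 219069357 to 219160815), had 3.28, 3.32 and 3.23 in the CD109-KO clones, against 6.44, 6.52 and 6.52 in the parental samples. Neither group spread by more than 0.1, and the groups lay far apart. Its log2 fold change was -3.21 (SE 0.21, adjusted p = 2.80e-07), a fall of at least 1.875-fold.

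In the ligase complex, XRCC4, the scaffold of ligase IV, had a log2 fold change of -2.71 (SE 0.27) and was at least 2.57-fold lower in CD109-KO cells. LIG4, the ligase itself, had a signal change of -1.86 (SE 0.35), but none of its CD109-KO values reached background and its parental mean of 4.88 lay under the CD109-KO background, so no fall could be bounded. PRKDC, the catalytic subunit of the DNA-dependent kinase that Ku recruits, had a log2 signal of 7.12, 6.41 and 7.15 in the CD109-KO clones, against 8.13, 6.87 and 7.92 in the parental samples. Parental sample 2 lay among the CD109-KO values, and the gene was not called (log2 fold change -0.75, adjusted p = 0.0640). Without parental sample 2 it was called lower, at -1.13. TP53BP1, which shields ends from resection, was not called either, at -0.29 with its groups overlapping.

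End resection was lower in all 3 of its measured members in CD109-KO cells (1 lower with housekeeping centring). RAD50, the coiled-coil ATPase of the nuclease complex (chromosome 5, 132556977 to 132646349), had a log2 signal of 4.99, 5.54 and 5.27 in the CD109-KO clones, against 9.58, 8.48 and 9.21 in the parental samples. Clone 32 alone passed background, by a narrow margin, and no values overlapped. The fitted log2 change was -3.82 (SE 0.30, adjusted p = 9.87e-07). NBN, which links the complex to the ATM kinase, had 3.22, 4.05 and 3.96 in the CD109-KO clones, against 6.97, 5.10 and 7.66 in the parental samples. Parental sample 2 was the nearest to the clones. For NBN the log2 fold change was -2.83 (SE 0.53, adjusted p = 0.000475), a fall of at least 1.985-fold. MRE11, the nuclease, had a signal change of -2.32 (SE 0.43) with no bound on its fall, and parental sample 2, at 4.13, was itself under background.

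Recombination mediators were divided. Of 8 measured, 3 were lower in CD109-KO cells, 5 were not called, and housekeeping centring left 5 higher and 3 not called. BRCA1, the tumour suppressor that starts recombination at resected ends (chromosome 17, 43044295 to 43170327), had a log2 signal of 2.29, 2.69 and 2.70 in the CD109-KO clones, against 6.77, 3.59 and 6.86 in the parental samples. Parental samples 5 and 6 were high, while parental sample 2 lay under background and closer to the clones than to the other parental samples. The fitted log2 change was -3.18 with a SE of 0.68 (adjusted p = 0.00123). Without parental sample 6 the change was -2.62 and the call was lost (adjusted p = 0.0104).

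BARD1, the obligate partner of BRCA1 in a ubiquitin ligase (chromosome 2, 214725646 to 214809683), had a log2 signal of 6.85, 6.41 and 5.59 in the CD109-KO clones, against 5.41, 5.07 and 5.41 in the parental samples. All clones were above all parental samples, clone 180 by the least and under its own background. The log2 fold change of 0.99 (SE 0.31, adjusted p = 0.0119) lay just outside both limits, and without clone 180 the gene was called higher, at 1.33.

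PALB2, which ties BRCA1 to the recombinase loader, had a log2 fold change of -2.29 (SE 0.25), and RAD51AP1, which stimulates strand pairing, one of -2.49 (SE 0.51). RAD52, an annealing protein, stood at 0.15 and was measured above background in all 6 arrays. RAD54L, a translocase of recombination, stood at -0.42, RAD54L2 at -0.37 and RAD51AP2 at 0.24, and their groups overlapped. RAD54L had a value of 3.38 in parental sample 2, lower than in any clone, and without that sample it was called lower, at -1.05.

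The recombinase paralogs moved both ways. Of 6 measured, 1 was lower and 1 was higher in CD109-KO cells, while 5 were higher and 1 was not called with housekeeping centring. RAD51D (chromosome 17, 35092221 to 35119860) had a log2 signal of 6.95, 6.66 and 6.88 in the CD109-KO clones, against 5.63, 5.60 and 5.91 in the parental samples, all above background. No values overlapped, and the log2 fold change was 1.12 (SE 0.22, adjusted p = 0.000703). With antigenomic centring it was 0.14 and not called. RAD51L3-RFFL, a read-through transcript that shares sequence with RAD51D, had one of 0.69 (adjusted p = 0.0141), and signal may be split between the pair, so both are uncertain.

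XRCC2 (chromosome 7, 152644776 to 152676141), which sits in the BCDX2 complex with RAD51D, had a log2 signal of 3.93, 4.02 and 3.90 in the CD109-KO clones, against 7.14, 4.50 and 7.16 in the parental samples. The clones agree within 0.2, whereas parental sample 2 stood far below the other parental samples. The log2 fold change was -2.31 (SE 0.57, adjusted p = 0.00301), a fall of at least 1.60-fold since no clone reached background, and the call was lost without clone 26, clone 180, parental sample 5 or parental sample 6, at -2.30, -2.29, -1.88 and -1.87. RAD51C, RAD51B and XRCC3 had log2 fold changes of -1.05, -0.97 and -1.09 and were not called, and without parental sample 2 they were called lower, at -1.59, -1.22 and -1.61.

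The checkpoint kinases, which halt the cell cycle at damaged DNA, were called lower in 4 of 4 cases in CD109-KO cells, with no clone above background for any of them, and with housekeeping centring they stood between -0.61 and 0.89 and were not called. CHEK1, the effector kinase under ATR, had a log2 signal of 3.64, 3.48 and 4.09 in the CD109-KO clones, against 6.61, 5.50 and 7.23 in the parental samples. Its groups lay apart, with a log2 fold change of -2.71 (SE 0.38, adjusted p = 6.85e-05) and a fall of at least 1.815-fold. CHEK2, the effector under ATM, had a signal change of -1.66 (SE 0.26) and a parental mean of 5.07, under the CD109-KO background, so no fall could be bounded. ATM and ATR, the kinases that sense breaks and stalled forks, had signal changes of -2.04 and -1.21. On the deposited scale the bound on the fall of ATM was 1.236-fold, but its change was 0.0565 with housekeeping centring. No fall could be bounded for ATR, with a parental mean of 4.78. The ATM call was lost without clone 26 or 180 or parental sample 5 or 6, at -1.81, -1.85, -1.74 and -1.78. The ATR call held only without parental sample 2 among the fits that left out 1 array, and values in the others ran between -0.96 and -1.28.

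Fanconi anaemia genes, which mend crosslinks between strands, were lower in 3 of 8 cases in CD109-KO cells (5 higher and 3 not called with housekeeping centring). FANCI, a clamp protein of the pathway, had a log2 fold change of -2.10 (SE 0.34), FANCF, an adaptor of the core complex, one of -2.03 (SE 0.28) and FANCC, also of the core complex, one of -1.91 (SE 0.46). All 3 lay under background in the clones and above it in the parental samples, and the bounds on their fall were 1.65-fold, 1.83-fold and 1.475-fold. The FANCC call was lost without clone 180, at -1.46, without parental sample 5, at -1.72, or without parental sample 6, at -1.59. FANCL, the ubiquitin ligase subunit, stood at 0.32 with overlapping groups, FANCE at -0.80 and FANCG at -0.54. Without clone 32 FANCE was called lower, at -1.01. FANCM and FANCB did not pass background in any array. Of the RecQ helicases, which unwind recombination structures, WRN had a log2 fold change of -2.15 (SE 0.32; -0.05 and not called with housekeeping centring). BLM had a log2 signal of 5.80, 4.79 and 5.02 in the CD109-KO clones, against 6.65, 4.61 and 6.71 in the parental samples. Parental sample 2 lay below all clones, and among the fits that left out 1 array BLM was called lower only without that sample, at -1.47.

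Mismatch repair genes were lower in 3 of 6 cases in CD109-KO cells (2 lower and 3 higher with housekeeping centring). PMS2, the endonuclease subunit of the main MutL complex (chromosome 7, 5970925 to 6009106), had a log2 signal of 3.06, 2.06 and 2.40 in the CD109-KO clones, against 6.88, 6.76 and 7.67 in the parental samples. The groups were far apart, with every clone under background. The fitted log2 change was -4.60 (SE 0.32, adjusted p = 4.77e-07), and it was at least 2.86-fold lower. The gene has near-identical pseudogenes, and which of them its probes could share was not tested.

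MSH6, which pairs in the MutS complex for single-base mismatches (chromosome 2, 47783145 to 47810101), had a log2 signal of 3.26, 4.21 and 3.26 in the CD109-KO clones, against 6.67, 6.58 and 6.85 in the parental samples. The parental samples were close together, sample 2 included, and the clones lay well below. The log2 fold change was -3.12 (SE 0.28, adjusted p = 3.16e-06), a fall of at least 2.16-fold. MSH3, which takes the place of MSH6 in the complex for larger loops (chromosome 5, 80654652 to 80876815), had 4.77, 5.61 and 5.12 in the CD109-KO clones, against 5.77, 5.49 and 6.20 in the parental samples. Clone 32 lay above parental sample 2, and the gene was not called (log2 fold change -0.66, SE 0.28, adjusted p = 0.0495). PMS1, of a second MutL complex, had a log2 fold change of -1.60 (SE 0.31), with 1 of 3 parental arrays above background. MLH3, a MutL subunit used chiefly in meiosis, stood at 0.30. MSH4, a meiotic MutS protein, passed background in no array.

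The promoters of MSH6 and MSH3 are shown because only MSH6 of these alternative partners was called lower. Each line holds the 120 bases before the annotated start, from RefSeq (GRCh38.p14), at chr2:47783025-47783144 and chr5:80654532-80654651, both on the plus strand. Capitals mark matches on either strand to an E2F site (TTTCCCGC, TTTCGCGC, TTTGCCGC or TTTGGCGC), a CCAAT box (CCAAT) or a cell cycle homology region (TTTGAA or TTCGAA). E2F proteins and the factors that bind the other motifs are known regulators of genes of dividing cells.
MSH6: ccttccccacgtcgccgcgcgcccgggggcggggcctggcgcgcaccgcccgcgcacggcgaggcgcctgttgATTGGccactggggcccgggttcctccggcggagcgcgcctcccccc
MSH3: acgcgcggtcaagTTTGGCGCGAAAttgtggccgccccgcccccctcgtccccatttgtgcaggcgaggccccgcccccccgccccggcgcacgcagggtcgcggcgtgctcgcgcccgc
The MSH6 stretch held 1 CCAAT box and no E2F match, while that of MSH3 held 2 E2F matches, which overlap each other. A match is a run of letters only, and binding was not measured.

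RefSeq promoters were matched for 46 of 52 members. The promoters of XRCC5, NBN, WRN, FANCI, PRKDC and RAD51L3-RFFL were not searched. In the 300 bases from 250 before to 50 after the start, 6 members (13.04%) held an E2F match, against 4.44% of 15842 promoters of protein-coding genes. That window was taken after a search of only the 250 bases before the start, which gave 3 members (6.52%) against 3.72%. Both windows were chosen after the data were seen. Among members called lower, 5 of 25 (20%) held an E2F match in the longer window and 2 of 25 (8.0%) in the shorter, against 1 of 21 (4.76%) among the others in both windows. A CCAAT box stood in 21 members (45.7%) against 36.4% of all promoters in the longer window, and in 20 (43.5%) against 34.5% in the shorter. The cell cycle homology region stood in 3 members (6.52%) in both, against 13.5% of all promoters in the longer window and 11.9% in the shorter.

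The first E2F match, in capitals, is shown within 30 bases for the other members that held one. Of these, XRCC6 and PMS2 had some of the largest falls. RAD50, ERCC5, NHEJ1 and BRCA1, also with large falls, held no E2F match. The stretches are chr22:41621315-41621344 (plus strand), chr7:6009131-6009160, chr7:152676102-152676131 and chr9:95317863-95317892 (minus strand), with the MSH6 match just after its start at chr2:47783137-47783166 (plus strand).
XRCC6: tgtccaagttggtcgcttccctGCGCCAAA
PMS2: cgggaagtattTTTGCCGCcccgcccggaa
XRCC2: tggcgttggtgGCGGGAAAgttgagtctct
FANCC: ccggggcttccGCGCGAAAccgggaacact
MSH6: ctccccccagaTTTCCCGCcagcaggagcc
The XRCC6, XRCC2 and MSH6 matches lie after the start, which is why the longer window counts more members.

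Single-strand break repair was divided between its scaffold and its ligase. LIG3, the ligase that seals single-strand nicks (chromosome 17, 34980512 to 35010872), had a log2 signal of 7.37, 7.12 and 7.50 in the CD109-KO clones, against 5.73, 5.18 and 5.14 in the parental samples. All 6 arrays were above background and the groups did not overlap. The fitted log2 change was 1.98 (SE 0.24, adjusted p = 2.67e-05), the largest rise among the members. XRCC1, the scaffold that holds LIG3 (chromosome 19, 43543311 to 43575527), had 8.31, 7.60 and 8.06 in the CD109-KO clones, against 8.80, 8.89 and 9.42 in the parental samples. The groups did not overlap but lay close, and the log2 fold change was -1.05 (SE 0.27, adjusted p = 0.00367). This call reversed to 1.05 with housekeeping centring, and it was lost without clone 32, at -0.86, without clone 180, at -1.09, without parental sample 6, at -0.86, and with a repeated quantile normalization, at -0.12. PARP1, which senses nicks, had 2.54, 3.74 and 3.15 in the CD109-KO clones, against 6.45, 4.93 and 6.75 in the parental samples. The clones were under background throughout. Its log2 fold change was -2.90 (SE 0.45, adjusted p = 0.000124; -0.80 and not called with housekeeping centring), a fall of at least 1.375-fold, and LIG3 and XRCC1 were both called higher under that centring.

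Excision repair nucleases and helicases were lower in 4 of 5 cases in CD109-KO cells (1 lower and 1 higher with housekeeping centring). ERCC5, the nuclease that cuts on the 3′ side of a lesion (chromosome 13, 102846032 to 102875995), had a log2 signal of 6.69, 5.49 and 6.01 in the CD109-KO clones, against 9.43, 9.53 and 9.70 in the parental samples. The parental samples spread little and the clones more, with clone 32 under background. The fitted log2 change was -3.49 (SE 0.30, adjusted p = 1.90e-06). ERCC3, a helicase of TFIIH, had a log2 fold change of -2.59 (SE 0.24), and ERCC1, the partner of the nuclease ERCC4, one of -1.19 (SE 0.24; -0.64 and not called with a repeated quantile normalization). ERCC2, the other TFIIH helicase, stood at -0.97, with no overlap, and was called lower without parental sample 2, at -1.23.

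ERCC4 was the member nearest the limit on p, with 3.35, 3.92 and 3.33 in the CD109-KO clones, against 4.14, 4.71 and 6.11 in the parental samples. Parental sample 6 lay well above the others. For ERCC4 the log2 fold change was -1.45 (adjusted p = 0.00836), and the call was lost without clone 26, 32 or 180 or without parental sample 2 or 6, at -1.36, -1.64, -1.34, -1.59 and -0.89. XRCC1, at -1.05, lay just inside the limit on fold. Just outside it were FANCM at -0.98, RAD51B at -0.97 and ERCC2 at -0.97, each with an adjusted p under 0.01. ERCC2 had 6.41, 6.12 and 6.40 in the CD109-KO clones, against 7.404, 6.75 and 7.67 in the parental samples, all above background. RAD51B had 4.57, 4.43 and 4.50 in the CD109-KO clones, against 5.62, 4.97 and 5.83 in the parental samples, with the clones under background. FANCM had 1.91, 2.25 and 2.04 in the CD109-KO clones, against 3.30, 2.93 and 2.90 in the parental samples, all under background. In each of these the clones lay below all parental samples, though for FANCM both groups were too dim for a fold. FANCM was called lower without clone 32, parental sample 2 or parental sample 6, at -1.07, -1.04 and -1.05.

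Partner genes were also compared within each array, where centring of the array drops out. A difference in spread between arrays does not drop out. The interquartile range of gene probe sets was 2.44 to 2.49 in CD109-KO arrays and 3.25 to 3.51 in parental arrays. Its part in the partner differences was not tested. The difference between the log2 signals of both partners was taken in each of 12 pairs, and its change between groups was tested by an exact two-sided permutation test, in which 3 against 3 arrays cannot give a p under 0.10. No overlap between groups was seen in 7 of 12 pairs, each with an exact p = 0.10 (0.171 after adjustment over the 12 pairs), so no pair passed an adjusted p of 0.05. Such a difference can bear on unequal movement of the partners only, and it cannot show that either stayed the same. In 6 of these 7 pairs a partner was above background in no CD109-KO array, so the size of the difference in the clones is not a measured one, and the pairs are not ranked by it. LIG3 and XRCC1 formed the 1 pair with both partners above background in all 6 arrays.

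The BARD1 minus BRCA1 difference was 4.55, 3.72 and 2.89 in CD109-KO clones 26, 32 and 180, against -1.36, 1.47 and -1.45 in parental samples 5, 2 and 6, a change of 4.17. Parental sample 2 lay nearest to the clones. The RAD51D minus XRCC2 difference was 3.03, 2.64 and 2.98 in the CD109-KO clones, against -1.50, 1.11 and -1.25 in the parental samples, a change of 3.43. The same parental sample was again the closest to them. For LIG3 minus XRCC1 it was -0.94, -0.48 and -0.55 in the CD109-KO clones, against -3.07, -3.72 and -4.28 in the parental samples, a change of 3.03. Here parental sample 2 was in the middle of its group.

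The MSH6 minus MSH3 difference was -1.52, -1.39 and -1.85 in the CD109-KO clones, against 0.90, 1.09 and 0.64 in the parental samples, a change of -2.46. In the clones MSH6 was above background in 0 of 3 arrays and MSH3 in 1 of 3, so the CD109-KO differences lie mostly between background-level signals. Between the Ku subunits, the XRCC5 minus XRCC6 difference changed by -0.86, while MRE11 minus RAD50 changed by 1.504 and CHEK1 minus ATR by -1.498. Groups overlapped for NBN minus RAD50 (0.99), LIG4 minus XRCC4 (0.85), CHEK2 minus ATM (0.38), ERCC4 minus ERCC1 (-0.26) and XRCC3 minus RAD51C (-0.05).

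**Figure D3:**
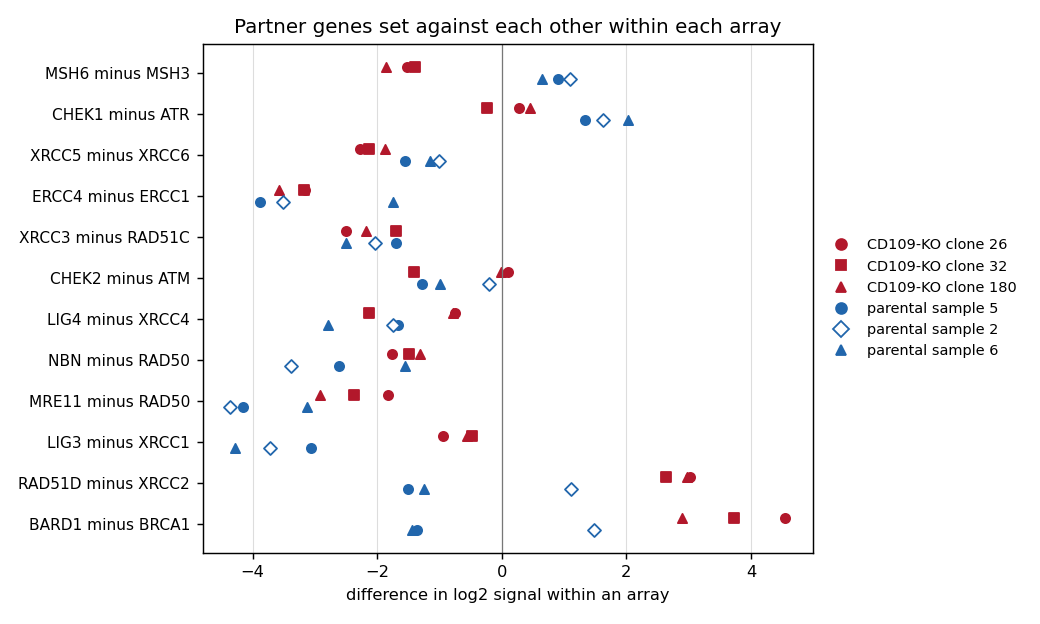
Difference in log2 signal between partner genes within each array (horizontal axis) for 12 pairs, CD109-KO clones in red above parental samples in blue, with parental sample 2 as open diamonds. The groups do not overlap in 7 pairs, of which 6 have a partner above background in no CD109-KO array, so that only the LIG3 minus XRCC1 change of 3.03 is measured on both sides.

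Parental sample 2 stood apart from the other parental samples for these genes. It had the lowest parental signal for 42 of 52 members (80.8%), against 33.7% of all gene probe sets, with a median difference of -0.63 from the mean of parental samples 5 and 6, against 0.03 over all gene probe sets. For 17 members (32.7%, against 4.90% of all gene probe sets) it was lower by 1 or more. The difference was -3.22 for BRCA1, -2.65 for XRCC2, -2.30 for RAD51AP1, -2.22 for NBN and -2.07 for BLM. NHEJ1 at 0.04, ERCC5 at -0.03 and MSH6 at -0.18 barely differed. A list of 24 proliferation genes moved with it: 24 of 24 were lowest in parental sample 2, with a median difference of -1.73. Their mean log2 signal was 5.42 to 5.52 in CD109-KO arrays and 6.68 to 8.51 in parental arrays. Of these, 18 of 24 (75.0%, against 24.8% of all gene probe sets) were lower in CD109-KO cells. Their median log2 fold change was -2.56 (7 lower and 4 higher with housekeeping centring). The paper reports faster growth by cell count and more cells positive for Ki67 protein after CD109 loss. Its growth cultures reached full confluence, where parental cells died. RNA for the arrays was taken before full confluence. MKI67, the gene of Ki67, had a log2 fold change of -3.26 here, with no CD109-KO array above background and a bound of 6.65-fold. Growth itself was not measured on the arrays. The part of proliferation in the repair results was not tested.

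**Figure D4:**
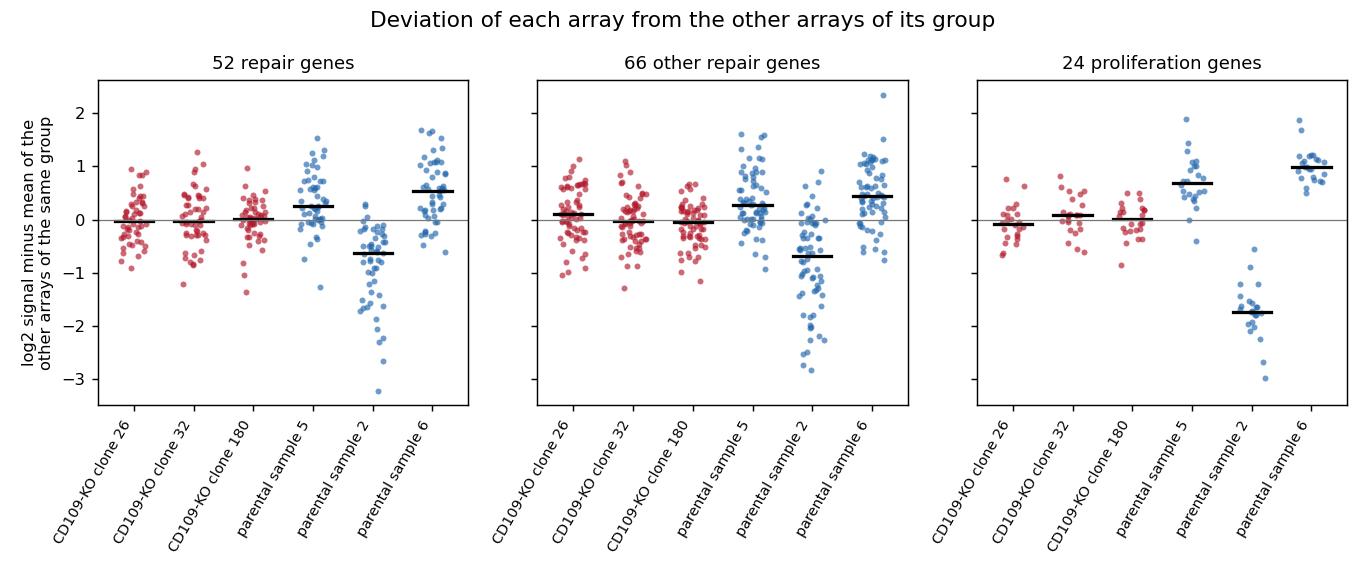
Log2 signal of each array minus the mean of the other arrays of its group (vertical axis), 1 point a gene, with black bars for medians, for the 52 repair genes, 66 other repair genes and 24 proliferation genes. Parental sample 2 has medians of -0.63, -0.69 and -1.73, while the CD109-KO clones stay near zero.

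Repair genes outside the symbol rule were listed by role. Of 66 measured, 39 fell in CD109-KO cells and 2 rose, with a median log2 fold change of -1.53 (13 lower and 24 higher with housekeeping centring). Among the partners of mismatch repair, PCNA, the sliding clamp, had a log2 fold change of -4.81 (SE 0.47) and RFC1, of the clamp loader, one of -3.68 (SE 0.31). In excision repair, APEX1, which cuts abasic sites, stood at -4.77 (SE 0.28) and GTF2H3, a TFIIH subunit, at -4.38 (SE 0.31). In recombination, MCM8, a helicase, stood at -4.03 (SE 0.61) and RPA3, of the single-strand binding complex, at -3.93 (SE 0.27). DCLRE1C, the nuclease that opens hairpin ends in end joining, stood at -3.04 (SE 0.28), and WEE1, a kinase that delays mitosis, at -3.81 (SE 0.32). The 2 genes that were higher, named after their values were seen, were MUTYH, a glycosylase of base excision repair, at 1.18 (SE 0.22), and POLD1, the catalytic subunit of polymerase delta, at 1.15 (SE 0.27). The 8 lower genes named here were above background in no CD109-KO array, and the bounds on their falls were 2.09-fold for RPA3 to 15.8-fold for APEX1. With antigenomic centring MUTYH and POLD1 were 0.20 and 0.17 and not called, and the POLD1 call was lost without clone 32, at 1.09, or parental sample 6, at 0.89.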

How the data were processed

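RNA from 3 clones lacking CD109 and 3 samples of parental A431 was hybridised to Clariom S human arrays. The deposited values are log2 signals, for which the authors corrected background and normalized with the Gene Expression Console software. Transcriptome Analysis Console and hg38 are named in the processing notes of the submitters. Which normalization algorithm was used is not stated in the sources used here. Values were used as deposited, for 21448 gene probe sets, and 2903 control probe sets were left out. Symbols came from the platform annotation, and all 52 matched RefSeq records of GRCh38.p14, the source of coordinates.

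CD109-KO was compared with parental in limma 3.58.1 (R 4.3.3) by lmFit and eBayes, with Benjamini-Hochberg adjustment over all gene probe sets, checked on simulated data. Calls needed an adjusted p under 0.01 with at least a 2-fold change, as set in the methods of the study. Background was the 95th percentile of 349 olfactory receptor probe sets on each array. Precision is limited by 3 arrays in each group.

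The members, lists and pairs were chosen with earlier results of these data known. Any member could be named. Per-array values were given for the 10 largest called falls, the rises, partners of which not both were called alike, and members near the thresholds, with up to 4 genes by size from each other list. Values of PRKDC, BLM and CHEK1 were added after they were seen. Symbols of the rule not listed here were not analysed here. Alternatives were another prior, Student's t-test, 3 other scalings, a background filter, a looser threshold, controls kept and each array left out.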

Additional observations from a re-analysis of the deposited data

How the results depend on the processing

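The limits are those of 6 arrays: 32 of 52 members lay under background in all CD109-KO arrays, against 10241 of 21448 gene probe sets. There a signal gives at most a bound, on the deposited scale. With housekeeping centring, which shifts the median of all gene probe sets by 2.10, 24 members were higher and 7 lower, 24 other repair genes higher and 13 lower, and 4 proliferation genes higher and 7 lower. With it, 23 members changed direction: FANCF 0.070, FANCC 0.19, FANCM 1.12, FANCE 1.30, FANCG 1.56, XRCC3 1.01, RAD51C 1.05, RAD51B 1.13, BLM 1.32, ATM 0.0565, CHEK2 0.44, ATR 0.89, LIG4 0.24, PRKDC 1.35, TP53BP1 1.81, ERCC4 0.65, ERCC1 0.91, ERCC2 1.13, RAD54L 1.68, RAD54L2 1.73, PMS1 0.50, MSH3 1.44 and XRCC1 1.05. With antigenomic centring, a shift of -0.98, 1 member was higher, 0 other repair genes were higher by limma (0 also at an unadjusted p under 0.05, and no other tool was run on that scaling), and the direction changed for FANCB -0.94, FANCL -0.66, RAD51L3-RFFL -0.29, RAD52 -0.83, RAD51AP2 -0.74, MLH3 -0.67 and MSH4 -0.27. A repeated quantile normalization, a shift of -0.23, turned FANCB to -0.45 and RAD51AP2 to -0.081. Over all gene probe sets the split of higher against lower calls was 7883 against 5310 as deposited, 16184 against 1510 with housekeeping centring and 1305 against 7724 with antigenomic centring.

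Student's t-test, adjusted by Benjamini-Hochberg, gave 12 members lower, 19 other repair genes lower and 1 higher, and 6 proliferation genes lower. Of all gene probe sets it gave 16.5% lower and 24.9% higher. An adjusted p of 0.05 with no minimum fold gave 5 members and 4 other repair genes higher, where 48.8% of all gene probe sets were higher. Leaving out 1 array at a time gave 23 to 36 members lower, 2 to 3 higher and 1 to 2 other repair genes higher, and 22 of the 29 lower calls and both higher calls held in all 6 of these fits. Direction varied there for FANCB (-0.23 to 0.55), TP53BP1 (-0.50 to 0.13), RAD52 (-0.014 to 0.30), ERCC4 minus ERCC1 (-0.67 to 0.40) and XRCC3 minus RAD51C (-0.26 to 0.14). The trend and robust prior changed no member's call. The cause of these changes was not tested. No paired analysis was possible because the groups share no replicate numbers.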
